A study of Mus musculus with 36 samples.

Results

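The miR-135 family was followed through small RNA libraries of the mouse prostate. The family was represented by the 2 microRNAs mmu-miR-135a-5p and mmu-miR-135b-5p, taken by name from the 1963 miRNAs that the tables list. They were chosen by their levels across the 12 groups of these same libraries, so those levels and their differences are given as a description and carry no test. No threshold was set in that choice. The 3 other mature products of the family, the 3p arms of its hairpins, were not used in that choice.

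Ventral and lateral prostate lobes came from male mice of 3 lines. Each line was sampled with TRAMP and without it, at 10 weeks and at 30 weeks of age, which gave 12 groups of 3 libraries. ELAC2 is the ribonuclease that trims the 3′ ends of precursor transfer RNAs. WT mice carried the normal Elac2 gene. KO mice lacked Elac2 where the probasin promoter (Pb) drives Cre, which is the prostate epithelium, so other cells of the lobes kept the gene. A537T mice were homozygous in all tissues for threonine in place of alanine in ELAC2. The TRAMP counterpart of each line (WT-TRAMP, KO-TRAMP, A537T-TRAMP) had its Elac2 alleles and was heterozygous for TRAMP, in which the probasin promoter drives SV40 T antigens, again in prostate epithelium. The strain label shared by all groups reads C56NL/6N, and WT and mutant mice were matched by litter and age. In bulk tissue, fewer cells of a type and less RNA per cell cannot be told apart.

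MicroRNAs are cut from a hairpin whose 2 arms give a 5p and a 3p product. One arm is usually loaded into Argonaute and kept, while the other is mostly degraded. The seed, bases 2 to 8 of the mature RNA, sets which messages are repressed. The miR-135 family is known for lowering APC, the brake on Wnt signalling in the gut, and miR-135a has been described as androgen-responsive in prostate cancer cells, where it lowers the kinases ROCK1 and ROCK2 that drive cell migration.

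The mature sequences show which products of the miR-135a loci can be told apart by sequencing and which cannot. No entry for miR-135b-5p was matched, so how its sequence differs from that of miR-135a-5p is not shown. The sequences are RefSeq entries, written 5′ to 3′ with the seed in capitals.
mmu-miR-135a-5p: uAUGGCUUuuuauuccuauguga
mmu-miR-135a-1-3p: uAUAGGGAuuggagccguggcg
mmu-miR-135a-2-3p: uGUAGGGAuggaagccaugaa
mmu-miR-135b-3p: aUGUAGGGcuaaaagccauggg
miR-135a-5p is encoded at 2 loci, Mir135a-1 and Mir135a-2, with the same 23 bases, so its reads cannot be assigned to either of them. The 3p arms differ between the loci and are the only mature products that separate Mir135a-1 from Mir135a-2.

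The Mir135a-2 hairpin is shown because its 3p arm is the family product on which tests were possible. It is written 5′ to 3′ with the 5p arm and then the 3p arm in capitals.
Mir135a-2: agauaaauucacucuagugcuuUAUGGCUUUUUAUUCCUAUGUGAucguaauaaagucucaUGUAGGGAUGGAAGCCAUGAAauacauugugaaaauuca
It is transcribed from the minus strand at chr10:92072086-92072185 (GRCm38), in an intron of Rmst, a long noncoding RNA known from neural differentiation. Mir135a-1 lies on the plus strand at chr9:106154124-106154213, in an intron of the noncoding gene D030055H07Rik and opposite an untranslated exon of Glyctk. Mir135b lies on the plus strand at chr1:132198088-132198184, in an intron of Lemd1 and of the overlapping gene model AC124108.1. The 3 hairpins are therefore on 3 chromosomes, and the only other miRNA hairpin within 50 kb of any of them was Mirlet7g, 24.6 kb from Mir135a-1.

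Library totals ran from 655455 to 21870210 miRNA reads, the smallest being library 35 (A537T, 10 weeks). Libraries are called by the number in their column name, and their groups rest on which tables hold each column. These tables hold no messenger RNA, so the deletion of Elac2 could not be checked in them. All 7 miRNAs listed as epithelial, among them the miR-200 family and miR-205-5p, were read in all 36 libraries and together took 3.84% to 10.3% of the reads. Stroma and smooth muscle miRNAs, 4 including miR-143-3p and miR-145a-5p, took 6.15% to 39.9%. Skeletal muscle miRNAs made up 9.71% to 30.6% of WT libraries of 10 weeks and at most 13.7% of any other library. At 30 weeks, libraries 11 (WT-TRAMP), 16 (KO-TRAMP), 23 (KO) and 26 (A537T) stood apart from the other 2 of their group in miR-135a-5p, and the main values that rest on them are also given without them. They were picked by miR-135a-5p itself, so a lack of overlap that appears only without them follows partly from that choice. The share of all miRNAs without overlap was not computed for such reduced groups.

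Levels are given as RPM, the reads of a miRNA per 1000000 miRNA reads of its library. miR-135a-5p was read in all 36 libraries, with 12 to 8282 reads each, and its mean of 68.2 RPM placed it 174th of 1963 miRNAs. It ran from 2.10 to 672 RPM, a 319-fold range. miR-135b-5p was also read in every library, with 28 to 886 reads and a mean of 23.8 RPM, the 233rd by abundance. Its range of 1.75 to 50.3 RPM, 28.7-fold, was much narrower than that of miR-135a-5p.

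Without TRAMP at 10 weeks, miR-135a-5p was highest in KO prostates. The 3 KO libraries had 100.2, 77.0 and 95.3 RPM, a mean of 90.8 ± 12.2 (SD, n = 3). The WT libraries had 60.9, 22.3 and 2.10 RPM, a mean of 28.4 ± 29.9 (SD, n = 3). The A537T libraries had 9.11, 18.3 and 9.76 RPM, a mean of 12.4 ± 5.13 (SD, n = 3). All 3 KO libraries lay above all 3 WT libraries and above all 3 A537T libraries, while A537T lay inside the range of WT. The share of the miRNAs tested that did not overlap was 26.5% for KO against WT. It was not computed for KO against A537T. Counted without skeletal muscle miRNAs, the KO mean was 93.1 RPM and the WT mean 32.7 RPM. The lowest WT value belonged to library 30, in which the stroma list was also lowest of the WT libraries, at 7.08% of reads.

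At 30 weeks without TRAMP the mutant lines each split into high libraries and a low one. WT libraries were uniformly low, at 4.63, 8.66 and 5.94 RPM (mean 6.41 ± 2.06, SD, n = 3). KO libraries had 82.0, 3.43 and 57.8 RPM (mean 47.7 ± 40.2, SD, n = 3). A537T libraries had 82.2, 5.99 and 70.4 RPM (mean 52.9 ± 41.0, SD, n = 3). The ratio of means to WT was 7.45 for KO and 8.24 for A537T, yet libraries 23 (KO) and 26 (A537T) lay within or below the range of WT, so the groups overlapped. Without library 23 the KO mean was 69.9 RPM, and without library 26 the A537T mean was 76.3 RPM. The ratios to WT were then 10.9 and 11.9, without overlap.

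In TRAMP prostates of 10 weeks, 8 of 9 libraries had under 30 RPM of miR-135a-5p. WT-TRAMP libraries had 5.94, 6.69 and 7.15 RPM (mean 6.59 ± 0.609, SD, n = 3), the tightest group of all. KO-TRAMP libraries had 5.23, 8.18 and 19.5 RPM (mean 10.98 ± 7.56, SD, n = 3). A537T-TRAMP libraries had 7.08, 64.9 and 26.8 RPM (mean 32.9 ± 29.4, SD, n = 3). All 3 lines overlapped, with library 5 of A537T-TRAMP standing alone above 30 RPM.

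The highest levels of miR-135a-5p were found in TRAMP prostates of 30 weeks. KO-TRAMP libraries had 15.3, 672 and 472 RPM, a mean of 386 ± 337 (SD, n = 3). WT-TRAMP libraries had 213, 10.3 and 99.6 RPM, a mean of 108 ± 102 (SD, n = 3). A537T-TRAMP libraries had 58.0, 16.4 and 33.1 RPM, a mean of 35.8 ± 20.9 (SD, n = 3). Libraries 17 and 18 of KO-TRAMP exceeded every other library of the series, whereas library 16 of the same group was below all 3 A537T-TRAMP libraries. Without library 16 the KO-TRAMP mean was 572 RPM and its 2 remaining libraries lay above all WT-TRAMP libraries. Without library 11 the WT-TRAMP mean was 156 RPM, and both remaining libraries lay above all 3 of A537T-TRAMP.

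**Figure D1:**
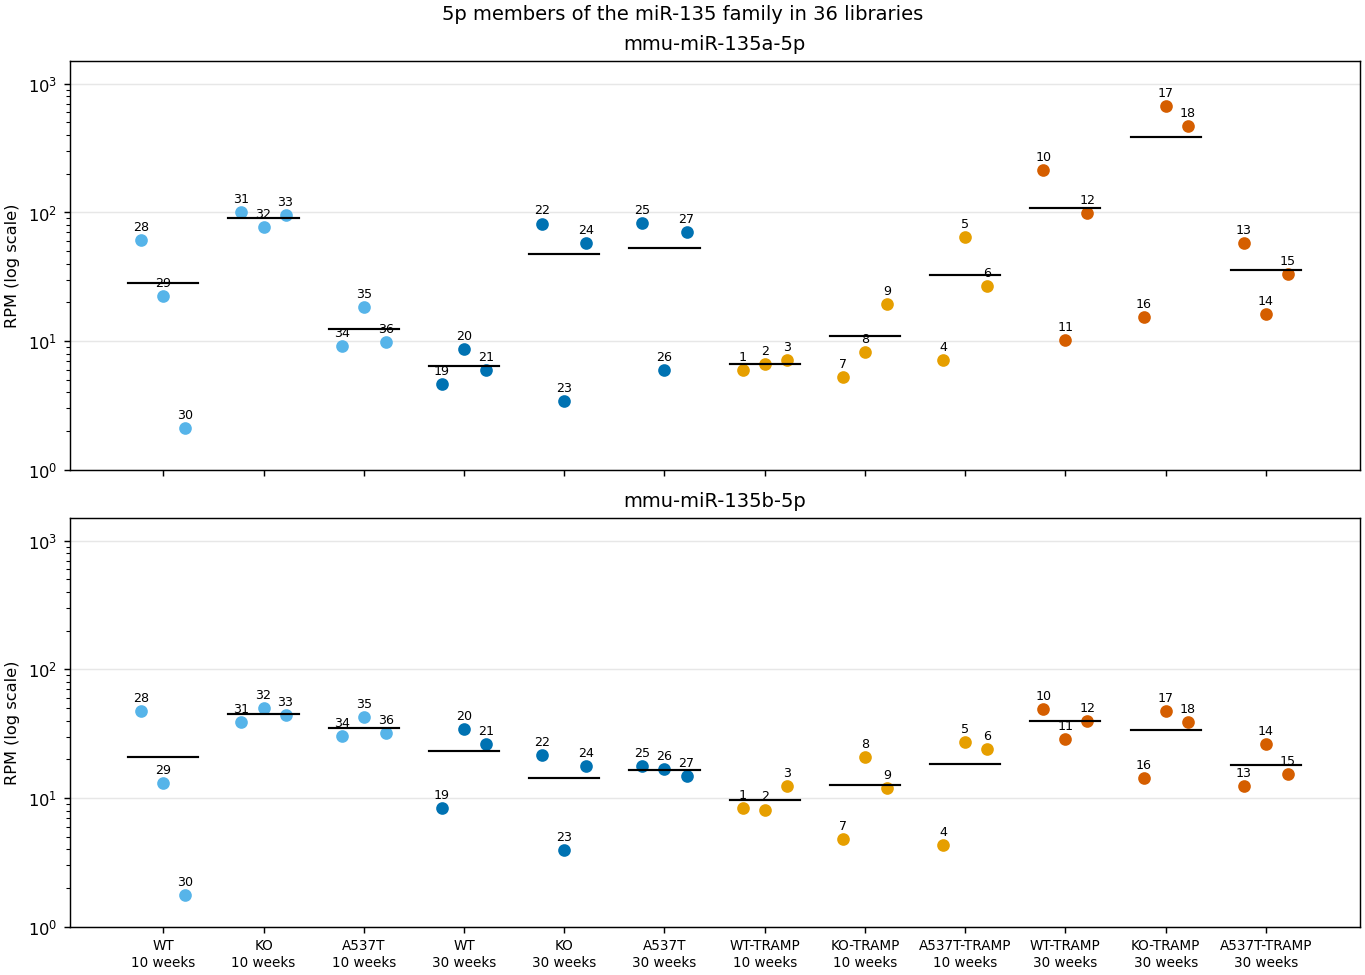
Level of miR-135a-5p (top) and miR-135b-5p (bottom) in RPM on a log scale for the 36 libraries by group, with points for numbered libraries, colours for TRAMP and age, and bars for means of 3 libraries. miR-135a-5p had 672 RPM in library 17 and 2.10 RPM in library 30, and several groups hold 2 high libraries and a low one, while miR-135b-5p stayed below 51 RPM throughout.

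Ordered by mean, miR-135a-5p ran from KO-TRAMP at 30 weeks through WT-TRAMP at 30 weeks, KO at 10 weeks, A537T at 30 weeks, KO at 30 weeks, A537T-TRAMP at 30 weeks, A537T-TRAMP at 10 weeks, WT at 10 weeks, A537T at 10 weeks, KO-TRAMP at 10 weeks and WT-TRAMP at 10 weeks to WT at 30 weeks. The first and last means differed 60.3-fold. Every group overlapped with its neighbour in this order, so no step of it was larger than the spread between libraries. The standard deviation within groups was 1.68 on the log2(RPM + 0.5) scale, the third highest of the 514 miRNAs with a mean of at least 1 RPM, whose median was 0.43. miR-135b-5p had 1.00, the 34th highest.

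miR-135b-5p differed less between the groups than miR-135a-5p. Without TRAMP at 10 weeks, KO libraries had 38.9, 50.3 and 44.5 RPM (mean 44.6 ± 5.72, SD, n = 3). A537T libraries had 30.4, 42.7 and 32.1 RPM (mean 35.1 ± 6.67, SD, n = 3). WT libraries had 47.7, 13.05 and 1.75 RPM (mean 20.8 ± 23.95, SD, n = 3). The mutant lines were both tight, and library 28 of WT kept the groups overlapping. In A537T miR-135b-5p was thus the more abundant member, unlike in KO.

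At 30 weeks without TRAMP the mutant lines were lower than at 10 weeks. WT libraries had 8.33, 34.5 and 26.3 RPM (mean 23.03 ± 13.4, SD, n = 3). KO libraries had 21.4, 3.98 and 17.7 RPM (mean 14.4 ± 9.19, SD, n = 3). A537T libraries had 17.9, 16.96 and 14.8 RPM (mean 16.5 ± 1.58, SD, n = 3). Library 26, which was low in miR-135a-5p, was level with the other A537T libraries in miR-135b-5p, while library 23 was low in both.

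In TRAMP mice miR-135b-5p was low at 10 weeks. WT-TRAMP libraries had 8.36, 8.15 and 12.3 RPM (mean 9.60 ± 2.34, SD, n = 3). KO-TRAMP libraries had 4.85, 20.8 and 11.9 RPM (mean 12.5 ± 8.01, SD, n = 3). A537T-TRAMP libraries had 4.32, 27.2 and 23.97 RPM (mean 18.5 ± 12.4, SD, n = 3). The 3 lines overlapped, as they did for miR-135a-5p.

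Among TRAMP mice of 30 weeks the A537T-TRAMP line had the lowest mean of miR-135b-5p. WT-TRAMP libraries had 49.6, 28.9 and 39.9 RPM (mean 39.4 ± 10.4, SD, n = 3). KO-TRAMP libraries had 14.3, 47.1 and 39.1 RPM (mean 33.5 ± 17.1, SD, n = 3). A537T-TRAMP libraries had 12.4, 26.3 and 15.5 RPM (mean 18.04 ± 7.32, SD, n = 3). All A537T-TRAMP libraries lay below all WT-TRAMP libraries, library 11 included, and KO-TRAMP spanned both. The highest and lowest group means of miR-135b-5p differed 4.64-fold, and every neighbouring pair of groups in the order of means overlapped.

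Groups that differ in 1 factor were compared 20 times, by whether all libraries of one lay above all of the other. The comparisons share control libraries and were not tested for the members. miR-135a-5p did not overlap in 4 of the 20 and miR-135b-5p in 6. In 12 comparisons both members overlapped. The share of all 514 miRNAs that did not overlap ran from 6.81% (A537T against WT, 10 weeks) to 60.3% (KO-TRAMP against KO, 10 weeks). The counts of the members therefore do not by themselves set them apart from other miRNAs. For these 20, the share is given beside each comparison of full groups in which a member did not overlap.

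Between lines, miR-135a-5p was higher in KO than in WT at 10 weeks, with a ratio of means of 3.19, in a comparison where 26.5% of the miRNAs did not overlap. The ratio was 7.45 without library 28 of WT and 2.18 without library 30, and the groups did not overlap either way. Marker lists did not overlap between these groups either. The stroma list held 30.3% to 35.9% of the reads in KO and 7.08% to 30.2% in WT. Skeletal muscle miRNAs held 0.73% to 6.49% in KO and 9.71% to 30.6% in WT. The part of tissue make-up in the difference was not tested. miR-135b-5p was lower in A537T-TRAMP than in WT-TRAMP at 30 weeks, at 0.457 of the WT-TRAMP mean, where 20% of the miRNAs did not overlap.

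Between TRAMP and non-TRAMP mice, both members were lower in KO-TRAMP than in KO at 10 weeks, at 0.121 of the KO mean for miR-135a-5p and 0.281 for miR-135b-5p, where 60.3% of the miRNAs did not overlap. In A537T mice of 10 weeks only miR-135b-5p separated, at 0.527 of the non-TRAMP mean, where 49% did not overlap. At 30 weeks miR-135a-5p was 16.8-fold higher in WT-TRAMP than in WT, where 46.5% did not overlap. Without library 11 that ratio was 24.4, and miR-135b-5p then separated as well, at 1.94-fold. For KO-TRAMP over KO at 30 weeks the ratios were 8.09 for miR-135a-5p and 2.33 for miR-135b-5p with overlap, and 12.0 and 3.00 without overlap once library 16 was left out.

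With age, miR-135b-5p at 30 weeks was 0.322 of its mean at 10 weeks in KO mice, where 52.9% of the miRNAs did not overlap, and 0.472 in A537T mice, where 34.8% did not. In WT-TRAMP mice both members were higher at 30 weeks, 16.3-fold for miR-135a-5p and 4.11-fold for miR-135b-5p, where 43% did not overlap. Without library 11 these were 23.7-fold and 4.66-fold. In KO-TRAMP mice the ratio of 35.2 for miR-135a-5p came with overlap through library 16, and without that library it was 52.1. In A537T-TRAMP mice the ratios were 1.09 for miR-135a-5p and 0.976 for miR-135b-5p, with overlap.

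Averaged over the 3 lines on the log2 scale, both members were lower in TRAMP than in non-TRAMP mice at 10 weeks and higher at 30 weeks. The A537T line went the other way for miR-135a-5p, with a ratio of means of TRAMP to non-TRAMP of 2.66 at 10 weeks and 0.678 at 30 weeks, both with overlap, and 0.470 without overlap at 30 weeks once library 26 was left out. At 10 weeks the log2 difference was -1.12 for miR-135a-5p and -1.15 for miR-135b-5p, against a median of -0.33 over all 514 miRNAs. At 30 weeks it was 1.94 and 0.77, against a median of 0.07. The difference of 30 minus 10 weeks was 2.55 and 1.22 in TRAMP mice, against a median of 0.12, and -0.50 and -0.70 in non-TRAMP mice, against -0.08. For miR-135a-5p without TRAMP the lines differed in direction, with ratios of 30 to 10 weeks of 0.225 in WT, 0.526 in KO and 4.26 in A537T, all with overlap. The averaged difference to WT was 1.63 in KO and 0.71 in A537T for miR-135a-5p, and 0.26 and 0.20 for miR-135b-5p, against medians of -0.05 and -0.04. The line ratios of A537T to WT for miR-135a-5p ran from 0.333 (TRAMP, 30 weeks) to 8.24 (no TRAMP, 30 weeks). Leaving out 1 library at a time, the log2 differences of miR-135a-5p ran from -1.54 to -0.78 and from 1.48 to 2.51 for TRAMP at 10 and 30 weeks. For age they ran from 2.22 to 3.12 with TRAMP and from -0.93 to -0.044 without it. Against WT they ran from 1.31 to 2.06 in KO and from 0.39 to 1.00 in A537T. The differences of miR-135b-5p to WT turned negative without library 30, at -0.029 in KO and -0.089 in A537T. Apart from the differences of miR-135a-5p with TRAMP at 30 weeks and with age in TRAMP mice, and of miR-135b-5p with TRAMP at 10 weeks and with age in TRAMP mice, each of these was smaller than 1 standard deviation of that miRNA within groups.

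**Figure D2:**
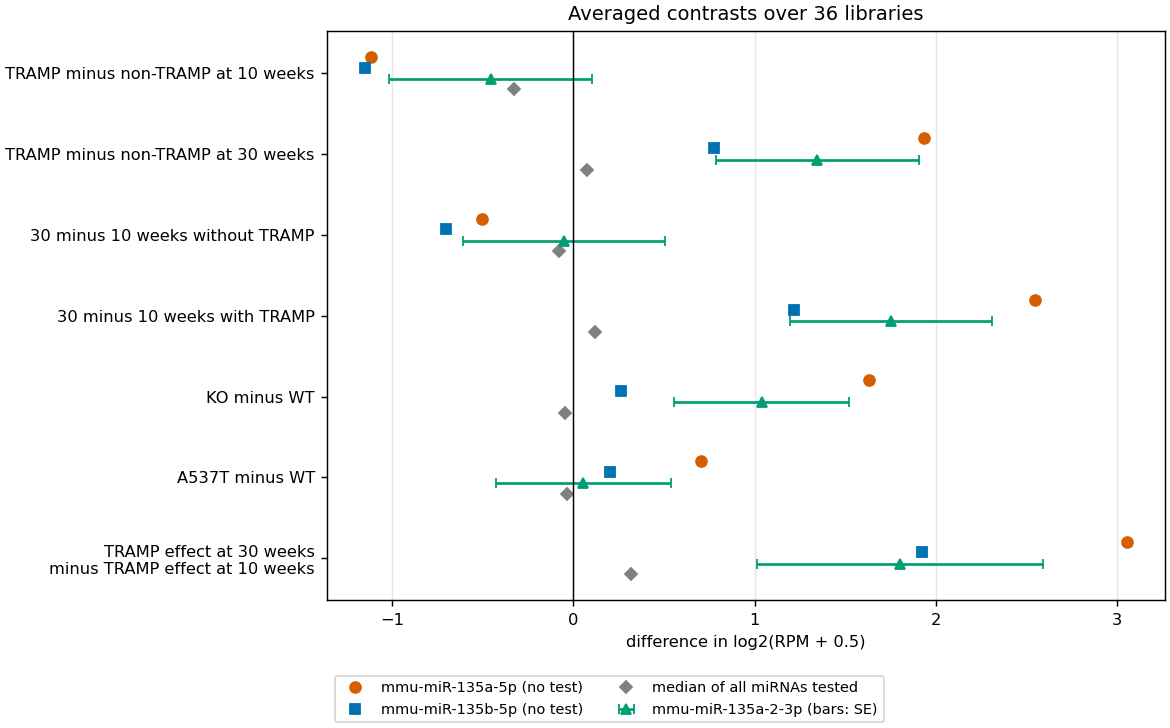
Difference in log2(RPM + 0.5) of miR-135a-5p (circles), miR-135b-5p (squares) and miR-135a-2-3p (triangles, bars are SE) in 6 contrasts averaged over groups and in the difference between the TRAMP effects at both ages, with the median of the 514 miRNAs (diamonds). The 5p members lie left of 0 for TRAMP at 10 weeks, at -1.12 and -1.15, and right of 0 for TRAMP at 30 weeks, at 1.94 and 0.77.

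The balance between the members differed from library to library. miR-135b-5p made up 74.5% ± 3.93 (SD, n = 3) of the reads of both 5p members in A537T prostates of 10 weeks and 75.2% ± 9.56 (SD, n = 3) in WT prostates of 30 weeks. In KO prostates of 10 weeks it made up 33.1% ± 5.89 (SD, n = 3), and no library of that group reached the lowest A537T share. The lowest mean, 20.8% ± 23.8 (SD, n = 3), was that of KO-TRAMP at 30 weeks.

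Within several groups the share divided the libraries in the same way as the level of miR-135a-5p. In KO-TRAMP at 30 weeks, miR-135b-5p took 6.56% of the reads in library 17 and 7.64% in library 18 but 48.3% in library 16. In A537T at 30 weeks it took 17.9% and 17.4% in libraries 25 and 27 and 73.9% in library 26, and in WT-TRAMP at 30 weeks 18.9% and 28.6% in libraries 10 and 12 and 73.8% in library 11. The 95% Wilson intervals of the divided libraries did not meet, for example 6.06% to 7.09% in library 17 and 43.0% to 53.7% in library 16. Without library 16 the mean share of KO-TRAMP was 7.10%, and without library 26 that of A537T at 30 weeks was 17.6%.

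**Figure D3:**
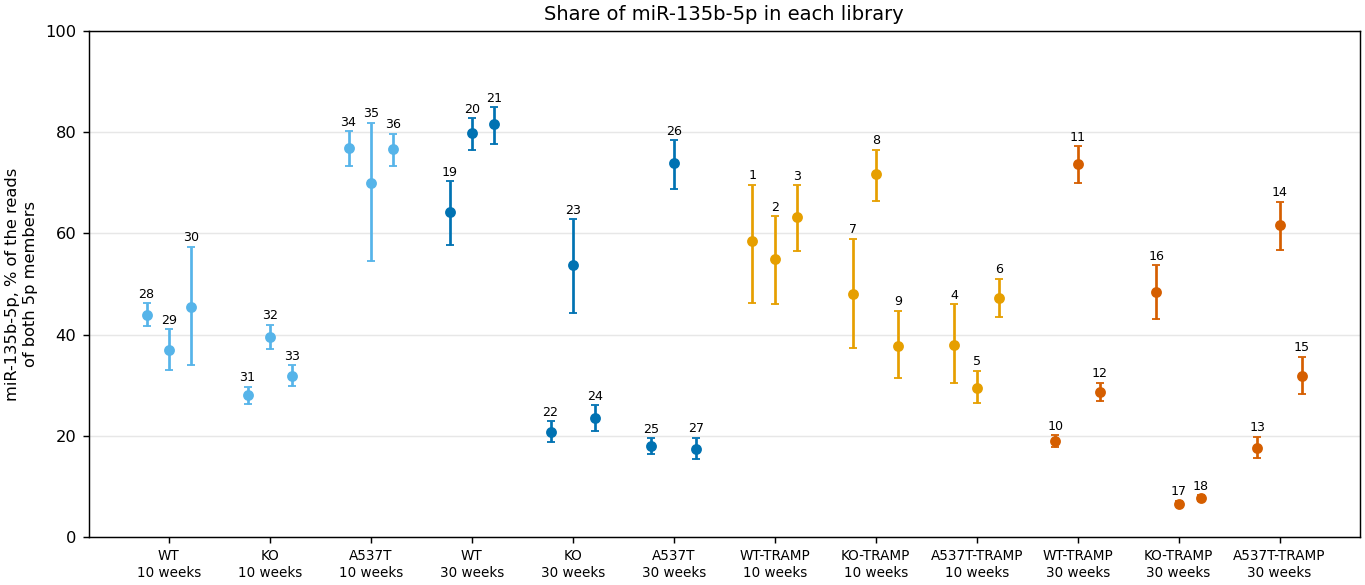
Share of miR-135b-5p in the reads of both 5p members (percent) in each library, by group, with 95% Wilson intervals for counting error and library numbers above the points. The share ran from 6.56% in library 17 to 81.6% in library 21, and at 30 weeks the groups other than WT each hold a library far above the other 2.

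The 3p arms are the other products of the same hairpins. miR-135a-2-3p, from Mir135a-2 alone, had 1182 reads in 29 of 36 libraries and a mean of 2.30 RPM. It was the only one of the 3 that reached the mean of 1 RPM required for a test, and it did so through the groups in which it was high. Its mean was 1.03 RPM without the KO-TRAMP libraries of 30 weeks and 0.784 RPM without those and WT-TRAMP of 30 weeks. The contrasts that hold these groups are therefore not independent of its passing. miR-135b-3p had 166 reads in 29 libraries and a mean of 0.320 RPM. miR-135a-1-3p had 49 reads in 5 libraries, of which 32 were in library 10 and 10 in library 12, both of WT-TRAMP at 30 weeks. In the 31 libraries without a read of miR-135a-1-3p, a count of 0 allows up to 0.137 to 4.58 RPM, depending on depth.

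miR-135a-2-3p was abundant where miR-135a-5p was. KO-TRAMP libraries of 30 weeks had 0.0888, 31.3 and 17.3 RPM (mean 16.2 ± 15.6, SD, n = 3, and 24.3 without library 16). WT-TRAMP libraries of 30 weeks had 6.55, 0.342 and 3.55 RPM (mean 3.48 ± 3.10, SD, n = 3). KO libraries of 10 weeks had 2.21, 1.69 and 2.37 RPM (mean 2.09 ± 0.353, SD, n = 3). The same libraries were low as for the 5p arm, with 1 read of miR-135a-2-3p in library 16 and 5 in library 11. In the other 9 groups no library exceeded 2.74 RPM.

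miR-135a-2-3p was tested over all 514 miRNAs with limma on log2(RPM + 0.5). It comes from the same libraries and hairpins as miR-135a-5p, so it is not independent of the libraries on which that member was chosen. It also passed the filter through TRAMP groups of 30 weeks. The p-values of contrasts that hold these groups are therefore a description and no independent support. Calls that appear only without a library picked by its low miR-135a-5p follow partly from that choice. In TRAMP mice miR-135a-2-3p was higher at 30 than at 10 weeks. The log2 difference was 1.75 ± 0.56 (SE), and limma gave an adjusted p of 0.0221, in a contrast where 26.5% of all miRNAs were called. The 9 libraries of each age overlapped, and the alternatives to the limma fit gave adjusted p between 8.9e-05 and 0.0652. The call was lost without library 10 (limma adjusted p 0.0578), library 17 (0.0652) or library 18 (0.0573). Without TRAMP it differed by -0.05 ± 0.56 (SE) between ages (limma adjusted p 0.958), where 33.7% of miRNAs were called.

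For TRAMP against non-TRAMP mice at 30 weeks the log2 difference of miR-135a-2-3p was 1.35 ± 0.56 (SE) and its adjusted p by limma 0.0504, in a contrast where 44.4% of miRNAs were called. The alternatives gave between 0.000372 and 0.144. It passed with edgeR (adjusted p 0.0165) and DESeq2 (0.0276) on recovered reads and, without library 16, with limma (0.000372). At 10 weeks the difference was -0.46 ± 0.56 (SE) (limma adjusted p 0.471), where 65.6% were called. The TRAMP effect at 30 weeks exceeded that at 10 weeks by 1.80 ± 0.79 (SE) (limma adjusted p 0.0738), where 37% of miRNAs were called, and this difference passed without library 11 (0.0336) or library 16 (0.00186).

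Between lines, the log2 difference of miR-135a-2-3p to WT was 1.04 ± 0.48 (SE) in KO (limma adjusted p 0.223) and 0.05 ± 0.48 (SE) in A537T (limma adjusted p 0.968). Without library 16, which was picked by its low miR-135a-5p, the KO difference was 1.48 and passed (limma adjusted p 0.0161). In both of these contrasts limma called 0% of the 514 miRNAs, while 107 for KO and 49 for A537T had an unadjusted p under 0.05. DESeq2 on recovered reads called 19 for KO and 1 for A537T, and edgeR called 0 for both. Leaving out library 16, limma called 38 for KO, and 28 without library 23.

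**Figure D4:**
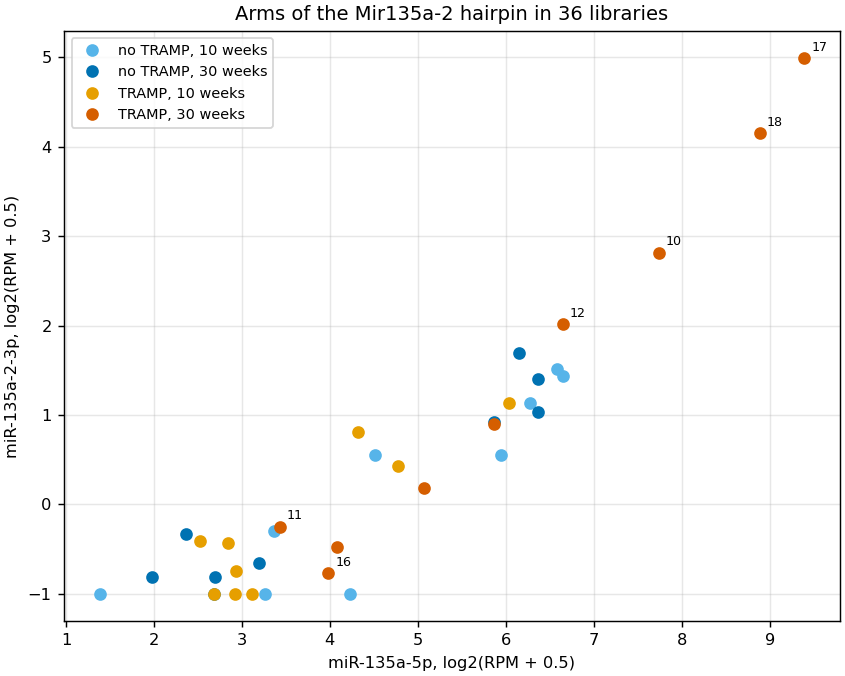
Level of miR-135a-2-3p against miR-135a-5p, both as log2(RPM + 0.5), in the 36 libraries, coloured by TRAMP and age. The libraries of TRAMP mice of 30 weeks reach furthest in both, with numbers given for WT-TRAMP (10 to 12) and KO-TRAMP (16 to 18), and libraries on the lowest line had 0 reads of the 3p arm.

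The share of the 3p arm of Mir135a-2 was low in every library with a read of it, from 0.578% in library 16 (95% Wilson interval 0.102% to 3.20%) to 6.02% in library 9 (3.08% to 11.4%). Summed over a group, miR-135a-2-3p made up 1.65% to 3.99% of the reads of both arms. The highest share was that of KO-TRAMP at 30 weeks, at 3.99% (95% Wilson interval 3.70% to 4.30%), and that of WT-TRAMP at 30 weeks was 3.13% (2.71% to 3.61%). KO at 10 weeks had 2.24% (1.84% to 2.73%). The interval of KO-TRAMP lay above those of both other groups, but it covers counting error only, and 656 of the 657 reads of the 3p arm in that group came from 2 libraries. Because the 5p reads of Mir135a-1 are in the denominator too, the share is a lower limit for Mir135a-2 itself. For miR-135b the 3p arm made up 0.299% to 2.72%.

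Over the 12 group means of log2(RPM + 0.5), miR-135a-2-3p followed miR-135a-5p with a Pearson correlation of 0.96, and over the deviations of the 36 libraries from their group means with 0.91. Between miR-135a-5p and miR-135b-5p these values were 0.61 and 0.70. All correlations here are descriptions across libraries that share preparation, depth and tissue composition, and carry no p. mmu-let-7g-5p, from the hairpin 24.6 kb from Mir135a-1, had -0.00 and -0.09 with miR-135a-5p. Its group means stayed between 18435 and 27595 RPM, far narrower than those of its neighbour.

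Among 296 miRNAs outside the family with a mean of at least 10 RPM, those most like miR-135a-5p over the group means were miR-181d-5p (0.87), miR-181c-3p (0.86), miR-10b-3p (0.82), miR-532-5p (0.82) and miR-10b-5p (0.77). Least like it were miR-152-3p (-0.86), miR-181a-5p (-0.84) and let-7d-5p (-0.80). For miR-135b-5p the closest were miR-342-3p (0.86), miR-192-5p (0.83), miR-34c-5p (0.79), miR-214-5p (0.76) and miR-181c-3p (0.72), and the least alike were let-7d-5p (-0.69), let-7a-5p (-0.68) and miR-181a-5p (-0.67). The members thus shared miR-181c-3p at the top and both let-7d-5p and miR-181a-5p at the bottom.

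The split of libraries within groups ran alongside other miRNAs. Over the deviations from group means, a measure added after the data had been seen, miR-135a-5p was most like miR-10b-5p (0.93), miR-10b-3p (0.90), miR-143-3p (0.88), miR-143-5p (0.88) and miR-181c-3p (0.87). In KO-TRAMP at 30 weeks miR-10b-5p stood at 1803 RPM in library 16, 41894 in library 17 and 28319 in library 18. In A537T at 30 weeks it stood at 2716 RPM in library 26 against 17999 and 22357 in libraries 25 and 27. miR-10b, which is encoded in the HoxD cluster, was thus low in both libraries in which miR-135a-5p was low. miR-143 is known from smooth muscle and stroma.

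For miR-135b-5p the closest in this measure were miR-362-3p (0.87), miR-181c-5p (0.87), miR-669c-5p (0.86), miR-342-3p (0.86) and miR-34c-5p (0.84), none of which was among the 5 of miR-135a-5p. The least alike within groups were let-7d-5p (-0.83), let-7b-3p (-0.82) and let-7a-5p (-0.81) for miR-135a-5p. For miR-135b-5p they were miR-340-3p (-0.88), miR-30d-5p (-0.82) and miR-128-3p (-0.80).

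The stroma list, of which miR-143-3p took most reads, moved with the family within groups, with a correlation of 0.88 with miR-135a-5p and 0.79 with miR-135b-5p. It held 6.15% of the reads in library 16 against 34.2% and 24.5% in libraries 17 and 18, 9.61% in library 11 against 19.8% and 13.7% in libraries 10 and 12, and 12.7% in library 23 against 29.7% and 27.3% in libraries 22 and 24. The part of stroma content in the levels of the family was not tested. Over the 12 group means the correlation of miR-135a-5p with the stroma list was 0.34, and that of miR-135b-5p was 0.59.

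**Figure D5:**
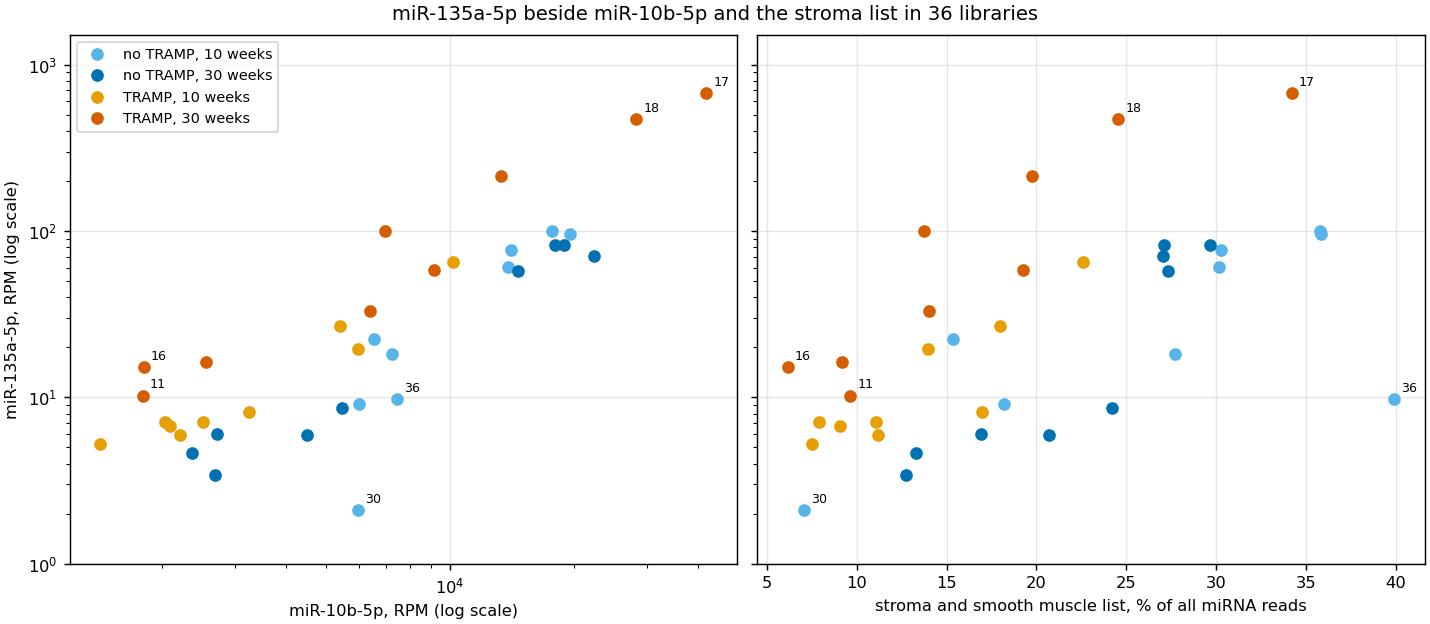
Level of miR-135a-5p (RPM, log scale) against miR-10b-5p (RPM, log scale, left) and against the share of reads from the stroma and smooth muscle list (percent, right) in the 36 libraries, coloured by TRAMP and age. Libraries 17 and 18 are highest in miR-135a-5p at 672 and 472 RPM, and library 36 has the largest stroma share, 39.9%, with 9.76 RPM.

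Other marker lists were set beside the members in the same way. Within groups the correlation with miR-135a-5p was 0.76 for the neural and neuroendocrine list, 0.75 for red cells, 0.26 for skeletal muscle, -0.34 for white blood cells and -0.58 for epithelium. With miR-135b-5p it was 0.71, 0.55, 0.08, 0.05 and -0.43. Over the 12 group means the values for miR-135a-5p were, in the same order, 0.68, 0.07, -0.19, 0.56 and -0.24. For miR-135b-5p they were 0.38, 0.29, 0.03, 0.17 and -0.45. The neural list, 5 miRNAs that share miR-375-3p with the epithelial list, held 1.89% and 1.51% of the reads in libraries 17 and 18 and no more than 0.810% in any other library. Its miRNAs, which include miR-124-3p and miR-9-5p, were read in every library. Red cell miRNAs took 0.0137% to 0.193% of the reads and white blood cell miRNAs 0.0181% to 0.158%. The part of these cell types in the levels of the family was not tested.

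Other miRNAs tied to androgen signalling or to the Wnt and PI3K targets of epithelia were counted alongside. Of 8 miRNAs linked to Wnt and PI3K signalling, 7 rose and 0 fell in TRAMP mice at 10 weeks, where 25.7% of all miRNAs rose and 39.9% fell by limma, with a median log2 difference of 0.58 for the list and -0.33 over all. At 30 weeks 6 rose and 0 fell, where 28.2% of all rose and 16.1% fell, with medians of 0.54 and 0.07. The list holds members of shared clusters, miR-17-5p with miR-20a-5p and miR-92a-3p, and miR-183-5p with miR-96-5p and miR-182-5p. Its counts are therefore not counts of independent miRNAs. The oncogenic cluster members miR-20a-5p and miR-17-5p rose by 0.67 ± 0.16 (SE) and 0.70 ± 0.16 at 10 weeks and by 1.35 ± 0.16 and 1.17 ± 0.16 at 30 weeks. miR-31-5p, an epithelial miRNA, rose by 0.68 ± 0.19 (SE) and 1.17 ± 0.19. These rises at 10 weeks stood beside negative differences of miR-135a-5p and miR-135b-5p when averaged over the lines, which were not tested. In the A537T line the mean of miR-135a-5p was higher with TRAMP at 10 weeks, with overlap.

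Of 10 androgen-linked miRNAs, 4 rose and 2 fell with TRAMP at 10 weeks, with a median log2 difference of 0.18, and 5 rose and 2 fell at 30 weeks, with a median of 0.31. The 6 called at 10 weeks are close to the 65.6% called over all miRNAs, and the 7 at 30 weeks stand beside 44.4%. miR-32-5p, an androgen-induced miRNA, rose by 1.51 ± 0.16 (SE) at 10 weeks and 2.04 ± 0.16 at 30 weeks, with limma adjusted p of 6.3e-09 and 1.7e-11. miR-222-3p fell by 0.44 ± 0.11 (SE) and by 1.06 ± 0.11, with limma adjusted p of 0.00111 and 6.1e-09. In KO against WT, 0 androgen-linked and 0 Wnt- and PI3K-linked miRNAs passed with limma, with 2 and 3 at an unadjusted p under 0.05, while DESeq2 on recovered reads called 0 and 3. In A537T against WT, 0 of each list passed with limma, with 1 of each at an unadjusted p under 0.05 and 0 of each with DESeq2 and edgeR.

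With age in non-TRAMP mice, 6 androgen-linked and 3 Wnt- and PI3K-linked miRNAs rose and 0 fell, where 13% of all miRNAs rose and 20.6% fell. In TRAMP mice 3 of each list rose and 0 fell, where 19.8% of all rose and 6.61% fell, and with TMM or DESeq2 size factors 1 androgen-linked miRNA was called. Counted without skeletal muscle miRNAs, 1 Wnt- and PI3K-linked miRNA was called with age in non-TRAMP mice. The split of calls between rises and falls over all miRNAs moved with the scaling of the libraries. With DESeq2 size factors in place of RPM it was 156 rises and 168 falls for TRAMP at 10 weeks (132 and 205 with RPM), 116 rises and 115 falls for TRAMP at 30 weeks (145 and 83 with RPM), 127 and 93 for age without TRAMP (67 and 106) and 74 and 62 for age with TRAMP (102 and 34). Without skeletal muscle miRNAs it was 36 and 151 for age without TRAMP. Each difference of the 2 members kept its sign under all 3 other scalings.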

How the data were processed

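Small RNA of 36 prostate libraries was sequenced as described by the study. The authors merged read pairs and removed adapters with BBMerge, and quantified miRNAs with mirDeep2 against GRCm38 and miRBase, summing miRNAs of identical sequence. How the counting used strand is not given in the sources used here. The authors deposited 8 tables of normalised counts, that is, a signal equal to the read count over a size factor of the library. The deposited tables of the authors' own comparisons hold shrunken log2 fold changes and s-values and were not used.

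Columns carry a library number but no group. A column held by both the KO and the mutant table of a background and age was taken as the control, the others as the line the table is named for, with mutant read as A537T. There were 0 columns without a group. The step between low values of each column gave back whole reads, and 100% of values were whole within 0.01 read. The 12 control columns present in 2 tables gave identical recovered reads in both. RPM was computed from these reads, which removes the separate normalisation of each table.

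The members and the lists of miRNAs were chosen with earlier results of these data known. Named miRNAs were the members, their 3p arms, the 5 most and 3 least alike miRNAs over group means (mean of at least 10 RPM), the androgen list, the Wnt and PI3K list and miRNAs within 50 kb. limma 3.58.1 with a variance trend was run on log2(RPM + 0.5), a scale that understates changes of low miRNAs. It covered 514 miRNAs with a mean of at least 1 RPM in 1 fit of 12 group means, two-sided, with Benjamini-Hochberg adjustment and a threshold of 0.05. The study calls its replicates biological, but the labels do not name the animals, so p-values measure the spread between these libraries. On simulated reads the fit was tested with known changes before use. Alternatives were TMM and DESeq2 size factors, totals without skeletal muscle miRNAs, a pseudocount of 5, other filters, no variance trend, edgeR 4.0.16 and DESeq2 1.42.0 on recovered reads, and leaving out libraries. Wilson intervals (95%) and limits for a count of 0 (3 reads) cover counting error only, because copies made by PCR were not marked by molecular identifiers. Sequences are from RefSeq (GRCm38.p6), in which 4 of the 5 mature family products were matched, and gene overlaps from GENCODE vM21.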

Additional observations from a re-analysis of the deposited data

Results flagged for a closer look

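Of 20 miRNAs tested beside the 5p members, 8 had a TRAMP effect that differed between 30 and 10 weeks by limma's interaction term, with adjusted p between 0.0023 and 0.0466, where 37% of all 514 miRNAs did. The log2 effect at 30 weeks minus that at 10 weeks was positive for miR-101a-3p (0.73), miR-20a-5p (0.68) and miR-224-5p (0.77). Each of these was called in 1 of the 3 other scalings. The difference was negative for miR-148a-3p (-0.84), miR-221-3p (-0.76) and miR-222-3p (-0.62), called in all 3, and for miR-183-5p (-0.57) and let-7g-5p (-0.24), called in 2. No sign changed with scaling. Over all miRNAs the interaction gave 144 positive and 46 negative calls, against 92 and 100 with DESeq2 size factors.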

How the results depend on the processing

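Of 722 alternatives to 38 values of the 5p members, 2 moved a value by at least the standard deviation between libraries. Leaving out a single library cannot shift a group mean or an averaged difference that far. Most of the 722 could therefore not be counted as moved, and the count does not measure how stable the values are. With DESeq2 size factors the KO mean at 10 weeks was 78.1 RPM for miR-135a-5p and 38.3 RPM for miR-135b-5p. For miR-135a-2-3p, TRAMP at 30 weeks passed with a pseudocount of 5 (log2 difference 0.63), edgeR (2.32), DESeq2 (2.30) and 8 of 36 left-out libraries. In those 8 it was 1.35 to 1.94, and over all 36 it was 0.98 to 1.94. Age without TRAMP turned positive with TMM (0.060), DESeq2 size factors (0.10), edgeR (0.11), DESeq2 (0.29) and 6 left-out libraries. In those 6 it was 0.0070 to 0.21, and over all 36 it was -0.22 to 0.21. Age with TRAMP ran from 1.39 to 2.35 over left-out libraries and lost its call in 3. KO against WT ran from 0.77 to 1.48 and passed in 1, and the interaction from 1.44 to 2.40 and passed in 2. A537T against WT turned negative with a pseudocount of 5 (-0.027), without libraries 30 and 35 (-0.046, chosen after seeing the data) and in 7 left-out libraries. In those 7 it was -0.17 to -0.0052, and over all 36 it was -0.17 to 0.25. The cause was not tested.

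With a mean of at least 10 RPM, which tests fewer miRNAs, limma called 212 and 135 for TRAMP at 10 and 30 weeks, 111 and 85 for age without and with TRAMP, and 124 for the interaction. KO against WT had 3 calls with DESeq2 size factors, 19 with DESeq2 and 0 to 38 over left-out libraries, and A537T had 1 with DESeq2. DESeq2 size factors shifted the median of all miRNAs by 0.19 for TRAMP at 10 weeks and by -0.31 for the interaction. For miR-135a-1-3p, 31 libraries held no read, so its differences could not be measured at this depth. No paired analysis was possible because the columns carry no replicate number.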
